A study of Homo sapiens with 66 samples.

Results

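The cytosolic DNA sensing genes followed here were CGAS, IFI16, STING1, TBK1, IKBKE, IRF3, TREX1 and SAMHD1. They were picked by symbol for their role, with earlier results of these data known, and they are 8 of the 57992 genes analysed. RNA was sequenced from 11 established cell lines derived from acute myeloid leukemia (AML), a cancer of myeloid blood precursors: THP-1, NOMO-1, HL-60, NB-4, F-36P, KASUMI-1, OCI-AML3, OCI-AML2, MV-4-11, MONO-MAC-6 and MOLM-13. Each line was either left in medium or given etoposide, a topoisomerase II poison that leaves breaks in DNA, for 24 h at the IC50 determined for that line, so that the concentration differed between lines. Each line and condition had 3 libraries, each from 3 pooled wells, which makes 66 libraries in all. The study discarded the etoposide libraries of OCI-AML2 at its quality control, so changes are given for the other 10 lines and OCI-AML2 is given apart. The study describes its experiments in general as having 3 biological replicates, but the labels do not say whether the 3 libraries of a group came from separate cultures. P-values within a line measure the spread between these libraries, part of which may be technical.

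The libraries held 17997404 to 24101670 reads assigned to genes (median 20241014). Levels are given as CPM, the usual unit of read counts relative to library depth, scaled once by the TMM method over the 66 libraries. Log2 fold changes, their standard errors and adjusted p-values come from a separate quasi-likelihood fit of each line in edgeR, with Benjamini-Hochberg adjustment over all genes tested in that line, and they can differ slightly from the ratio of the printed levels. A gene was called induced or repressed at an adjusted p below 0.05 and a change of more than 2-fold. "Rose" and "fell" are used for an adjusted p below 0.05 alone. CDKN1A, a target of p53 after DNA damage that served as the treatment check, was induced in 10 of 10 lines, with log2 fold changes of 1.86 to 5.46. MDM2, the other p53 target of this check, was induced in 3 lines, rose by less in 2, did not pass in 4 and fell in NB-4. In the OCI-AML2 libraries CDKN1A rose by less (log2 fold change 0.73, SE 0.06, adjusted p = 0.000289). The erythroid markers set F-36P apart: all 8 were above 1 CPM in untreated F-36P, where their sum was 5651 to 7926 CPM, against at most 31.4 CPM in any other untreated line. The myeloid markers were above 1 CPM for 6 of 10 in untreated F-36P and for 7 to 10 of 10 in the other lines.

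DNA belongs in the nucleus and the mitochondria, and its appearance in the cytosol is read by the cell as a sign of infection or damage. CGAS binds such DNA and makes the messenger cGAMP, which binds STING1, an adaptor of the endoplasmic reticulum membrane. STING1 recruits the kinase TBK1, and its relative IKBKE, which phosphorylate the transcription factor IRF3, and IRF3 then switches on type I interferon and chemokine genes. IFI16 is a DNA-binding protein that also feeds into this route. TREX1, an exonuclease that degrades cytosolic DNA, and SAMHD1, an enzyme that breaks down deoxynucleotides and acts at stalled replication forks, hold the route in check. Several of these genes are themselves switched on by interferon in many cell types.

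Positions are those of gencode release 44 on GRCh38. IFI16 (ENSG00000163565.18) and IKBKE (ENSG00000263528.7) lie on chromosome 1, at 158999968 to 159055155 and 206470476 to 206496889. TBK1 (ENSG00000183735.9) lies on chromosome 12 at 64452090 to 64502114. These 3 genes are on the plus strand, as is TREX1 (ENSG00000213689.10) on chromosome 3 at 48465811 to 48467645. The other 4 are on the minus strand: STING1 (ENSG00000184584.12) on chromosome 5 at 139475533 to 139482935, CGAS (ENSG00000164430.15) on chromosome 6 at 73413515 to 73452297, IRF3 (ENSG00000126456.15) on chromosome 19 at 49659569 to 49665875 and SAMHD1 (ENSG00000101347.8) on chromosome 20 at 36890229 to 36951893. TREX1 is listed with 0 reads in all 66 libraries, and so has no level here. All of its 1448 exonic bases also lie in exons of ATRIP on the same strand, and reads that fall on more than 1 gene are set aside by the gene counting of STAR. ATRIP itself was at 0 to 0.844 CPM. A count of 0 for TREX1 therefore says nothing about its expression, and the results below concern 7 genes, all of which passed the filter on low counts in every line. Exons of the other strand overlap IRF3 most, by 19.3% of its exonic bases (BCL2L12). The deposited counts appear to keep the strands apart: 470 of 716 genes buried entirely in an antisense exon still received reads. These genes were found with gencode release 44, whereas the study counted with an earlier release, so the reads do not settle it. The effect of the overlap on the IRF3 counts was not tested.

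Upstream sequence of 5 of the 8 genes is held by RefSeq on GRCh38.p14. It is shown for IFI16 and SAMHD1, the genes induced in the most lines, beside both kinases, which were induced or repressed in none. Each stretch runs 5′ to 3′ on the gene's strand, starts 250 bases before the RefSeq start and stops at the first base that gencode places in an exon of the gene. Capitals mark CpG dinucleotides, the bases at which DNA can be methylated.
IFI16, plus strand, chr1:159009657-159009891: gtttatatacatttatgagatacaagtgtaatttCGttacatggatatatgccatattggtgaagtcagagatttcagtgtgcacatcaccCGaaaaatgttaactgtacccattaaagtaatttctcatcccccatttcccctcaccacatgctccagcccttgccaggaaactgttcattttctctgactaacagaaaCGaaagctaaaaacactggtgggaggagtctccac
SAMHD1, minus strand, chr20:36951894-36951958: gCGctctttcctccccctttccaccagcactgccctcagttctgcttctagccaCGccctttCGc
TBK1, plus strand, chr12:64451870-64452089: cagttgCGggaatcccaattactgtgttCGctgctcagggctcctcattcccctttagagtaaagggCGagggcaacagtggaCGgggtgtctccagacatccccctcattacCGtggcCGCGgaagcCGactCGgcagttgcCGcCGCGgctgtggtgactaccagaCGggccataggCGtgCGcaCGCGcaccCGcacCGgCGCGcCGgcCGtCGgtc
IKBKE, plus strand, chr1:206470226-206470475: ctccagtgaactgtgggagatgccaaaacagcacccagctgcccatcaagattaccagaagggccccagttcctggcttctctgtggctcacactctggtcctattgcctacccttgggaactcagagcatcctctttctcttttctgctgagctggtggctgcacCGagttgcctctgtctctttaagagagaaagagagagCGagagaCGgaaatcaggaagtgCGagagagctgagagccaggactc

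Counted over the full 250 bases, CpG dinucleotides numbered 3 for IFI16, 14 for SAMHD1, 27 for TBK1 and 4 for IKBKE, against a median of 11 and quartiles of 3 and 23 over 35116 promoters. A second IFI16 start in RefSeq had 0. The 2 genes induced most often thus differed in this respect, and so did the kinases. The same 250 bases were searched on both strands for the core of the interferon-stimulated response element (GAAA, any 2 bases, GAAA), the gamma-activated sequence (TTCNNNGAA), the NF-kB site and the p53 decamer. No match was found for any of the 5 genes, which says only that these letters are not in these windows. Over all promoters, 3.0%, 6.6%, 10.0% and 5.6% hold the respective motif.

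In untreated cells the 7 measured genes covered very different ranges (the plot of untreated levels by line). All 7 differed between the 11 lines in edgeR's quasi-likelihood F test on the 33 untreated libraries, with the highest adjusted p for TBK1 (adjusted p = 9.91e-05). This is the rule in these data, since 99.4% of all genes tested did so. Between the highest and the lowest line, mean levels differed 183-fold for IFI16, 18.6-fold for SAMHD1, 12.3-fold for STING1 and 8.46-fold for IKBKE, but only 3.80-fold for CGAS, 2.21-fold for IRF3 and 2.03-fold for TBK1. Of the 70 steps between neighbouring lines in these orders, 30 (42.9%) separated all libraries of the higher line from all of the lower one, against 30.5% over all genes tested. Per kilobase of exon, which allows genes to be compared, the median line had 33.2 CPM per kb for STING1, 21.6 for IRF3, 15.6 for SAMHD1, 12.7 for IKBKE, 9.57 for CGAS, 3.53 for IFI16 and 3.45 for TBK1. The annotated exons of TBK1 add up to 14.7 kb, longer than those of the other genes, which lowers its value on this scale.

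**Figure D1:**
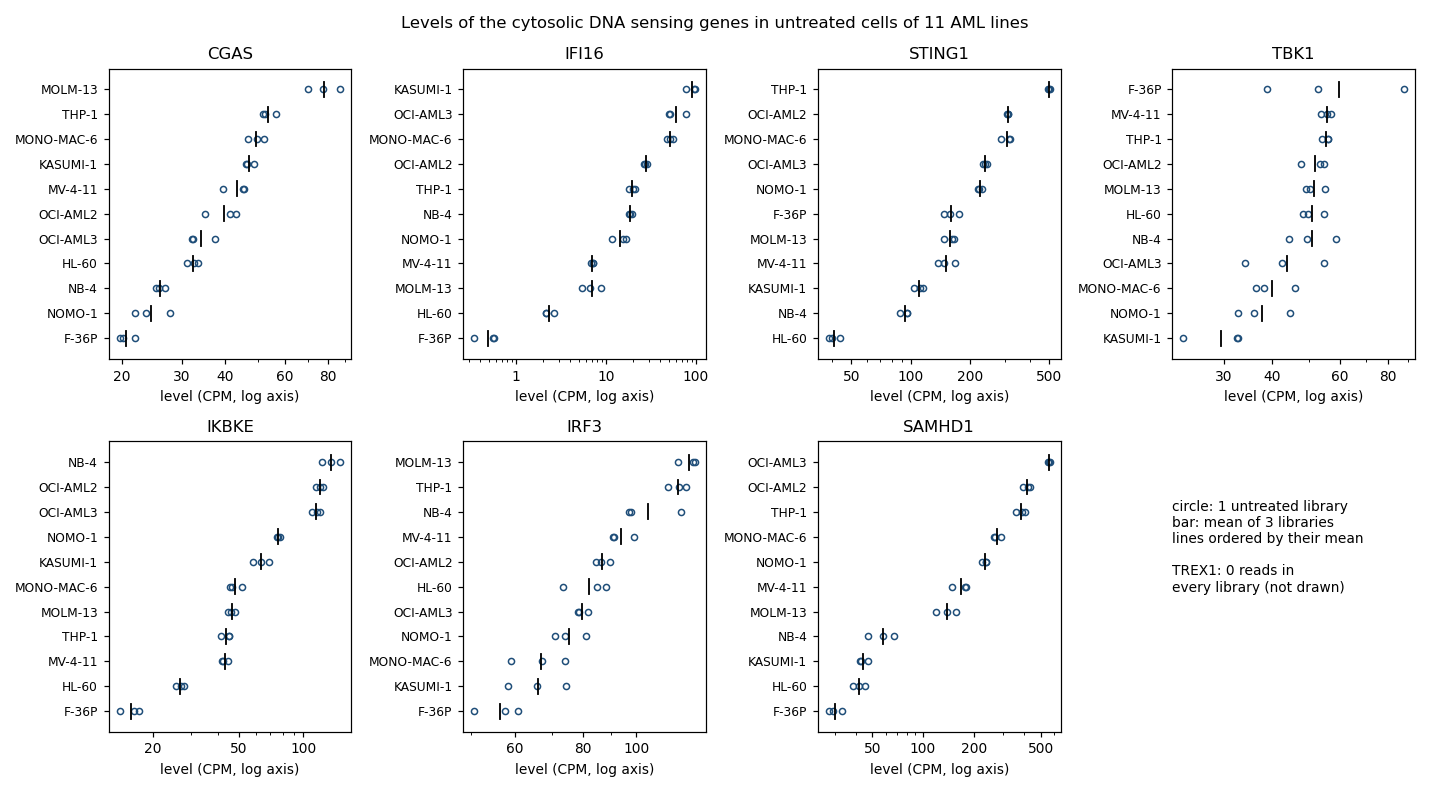
Levels of 7 cytosolic DNA sensing genes in untreated cells (CPM, log axis, a separate scale for each gene), with 1 circle per library and a bar at the mean of 3 libraries, lines ordered by mean. IFI16 spans from 0.494 CPM in F-36P to 90.5 CPM in KASUMI-1, while the ranges of TBK1 overlap between all neighbouring lines.

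The sensors IFI16 and CGAS did not share an order of lines. IFI16 was highest in KASUMI-1 (90.5 ± 10.3 CPM; mean ± SD, n = 3 throughout), followed by OCI-AML3 (60.4 ± 15.8), MONO-MAC-6 (51.7 ± 3.49) and OCI-AML2 (27.6 ± 1.21). Intermediate levels were found in THP-1 (19.7 ± 1.66), NB-4 (18.7 ± 0.699) and NOMO-1 (14.6 ± 2.53). MV-4-11 (7.07 ± 0.25), MOLM-13 (6.96 ± 1.68), HL-60 (2.33 ± 0.29) and F-36P (0.494 ± 0.127) were low. F-36P had only 27 IFI16 reads over its 3 untreated libraries. Neighbours in this order overlapped for OCI-AML3 and MONO-MAC-6, for THP-1 and NB-4, and for MV-4-11 and MOLM-13, and the other 7 steps exceeded the spread of libraries. CGAS was highest in MOLM-13 (78.2 ± 8.63 CPM), ahead of THP-1 (53.5 ± 2.58), MONO-MAC-6 (49.5 ± 2.59), KASUMI-1 (47.1 ± 1.26), MV-4-11 (43.5 ± 3.42), OCI-AML2 (39.9 ± 4.32), OCI-AML3 (34.0 ± 3.03) and HL-60 (32.3 ± 1.11). Its lowest levels were in NB-4 (25.9 ± 0.799), NOMO-1 (24.4 ± 2.98) and F-36P (20.6 ± 1.14). Only 4 steps of the CGAS order separated the libraries: below MOLM-13, below KASUMI-1, below HL-60 and above F-36P.

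The adaptor STING1 was highest in THP-1 (499 ± 4.19 CPM). It followed in OCI-AML2 (309 ± 3.09), MONO-MAC-6 (306 ± 18.8), OCI-AML3 (236 ± 4.55) and NOMO-1 (223 ± 6.15). F-36P (160 ± 14.0), MOLM-13 (158 ± 9.20) and MV-4-11 (150 ± 15.3) had overlapping middle levels, as had OCI-AML2 and MONO-MAC-6 above them. KASUMI-1 (110 ± 6.03), NB-4 (92.7 ± 4.27) and HL-60 (40.7 ± 2.82) were each separate from the line above. SAMHD1 was led by OCI-AML3 (558 ± 7.89 CPM), OCI-AML2 (413 ± 19.8) and THP-1 (382 ± 24.3), the last 2 of which overlapped. MONO-MAC-6 (274 ± 13.3), NOMO-1 (232 ± 7.40), MV-4-11 (169 ± 17.2) and MOLM-13 (138 ± 18.7) came next, and the last 2 again overlapped. A lower group held NB-4 (57.5 ± 10.3), KASUMI-1 (44.1 ± 2.69) and HL-60 (41.8 ± 3.52), whose neighbours overlapped, with F-36P (30.01 ± 2.78) separate below them. Over the 11 lines, Pearson's r of mean log2(1 + CPM) between STING1 and SAMHD1 was 0.79, the highest of the 21 pairs of these genes, given as a description of lines that differ in many genes.

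The kinase IKBKE was highest in NB-4 (134 ± 13.5 CPM), OCI-AML2 (119 ± 4.18) and OCI-AML3 (114.5 ± 5.11), whose neighbours overlapped. NOMO-1 (76.6 ± 1.09) and KASUMI-1 (63.7 ± 5.31) were each separate. Next, MONO-MAC-6 (48.0 ± 3.30) overlapped with MOLM-13 (46.4 ± 1.78), which overlapped with THP-1 (43.8 ± 2.03), as that did with MV-4-11 (43.1 ± 1.36), and HL-60 (26.8 ± 1.16) and F-36P (15.9 ± 1.67) lay below them. TBK1, its widely expressed relative, lay between 29.5 ± 5.17 CPM in KASUMI-1 and 59.8 ± 25.4 CPM in F-36P, and none of the 10 steps in its order exceeded the spread. The 3 untreated F-36P libraries gave 38.8, 52.6 and 88.0 CPM for TBK1, the widest spread of any line. IRF3 ran from 56.3 ± 5.15 CPM in F-36P to 125 ± 4.91 in MOLM-13, with THP-1 (119 ± 4.36) and NB-4 (105 ± 13.4) near the top. Of its 10 steps, only that between MV-4-11 (93.6 ± 4.70) and OCI-AML2 (86.7 ± 2.47) exceeded the spread. HL-60 (82.1 ± 7.58), OCI-AML3 (79.5 ± 1.96), NOMO-1 (75.3 ± 5.06), MONO-MAC-6 (66.9 ± 7.56) and KASUMI-1 (66.2 ± 7.999) filled the rest.

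The question put to the etoposide libraries was whether the DNA damaging drug changed the RNA of the sensing route. Over 10 lines, 70 pairs of gene and line were tested. Of these, 9 were induced, or 12.9% against 11.1% of all gene-line pairs, and 0 were repressed, against 3.96%. By the adjusted p alone, 29 pairs (41.4%) rose and 7 (10.0%) fell, against 27.7% and 24.4% of all pairs. The share induced was thus near that of genes at large. By line, in either direction, 5 of 7 passed in F-36P (59.9% of all genes tested there) and NB-4 (59.8%), and 4 in HL-60 (32.5%), THP-1 (32.1%), KASUMI-1 (60.1%), MOLM-13 (56.2%) and MV-4-11 (63.9%). In MONO-MAC-6 (62.3%) and NOMO-1 (52.7%) 3 passed, and in OCI-AML3 (40.1%) none did. The median log2 fold change was 0.16 over the 70 pairs and 0.01 over all pairs. With DESeq2 29 pairs rose and 9 fell. TMM scaling placed the log2 changes lower than library size alone would by 0.25 in F-36P, 0.21 in NB-4, 0.17 in KASUMI-1, 0.13 in MV-4-11, 0.12 in MONO-MAC-6 and 0.10 in HL-60. With library size alone 36 pairs rose and 4 fell, and 64.7% of all calls over all genes were upward instead of 53.1%. Counts per library are shares of its reads, so that a change in RNA per cell and a change in the share of cells that hold it cannot be told apart.

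**Figure D2:**
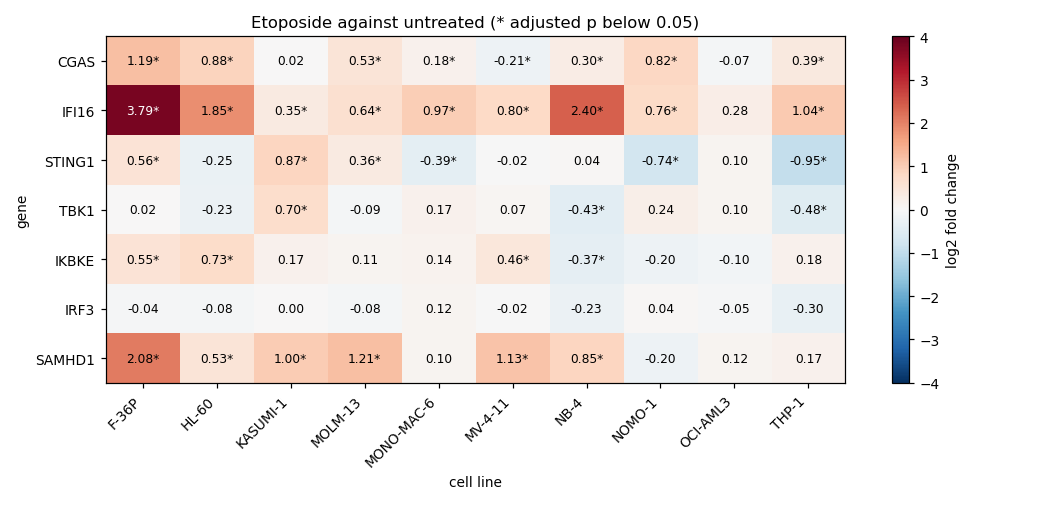
Log2 fold changes of 7 cytosolic DNA sensing genes after etoposide in 10 lines, from a separate edgeR fit of each line (3 against 3 libraries), with an asterisk at an adjusted p below 0.05. IFI16 is positive in 10 of 10 lines, SAMHD1 rises in 6, STING1 rises in 3 and falls in 3, and IRF3 passes in none.

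IFI16 rose in 9 of 10 lines and was induced in 4. In F-36P it went from 0.347, 0.559 and 0.575 CPM untreated to 9.74, 2.38 and 9.45 CPM with etoposide, from 27 to 446 reads in all. All etoposide libraries lay above all untreated ones, but replicate 2 was far lower than the other 2. The log2 fold change in F-36P was 3.79 (SE 0.57, adjusted p = 0.000259), and 4.20 (SE 0.25) without that library. NB-4 gave 19.3, 17.9 and 18.8 CPM untreated and 111, 88.2 and 106 CPM with etoposide, a 5.26-fold induction (log2 2.40, SE 0.11, adjusted p = 4.23e-10). HL-60 started low, at 2.18, 2.67 and 2.15 CPM, and reached 9.18, 7.67 and 8.96 CPM (log2 1.85, SE 0.17, adjusted p = 8.79e-06). THP-1 went from 20.2, 17.9 and 21.1 CPM to 47.8, 34.6 and 43.0 CPM. There the log2 fold change was 1.04 (SE 0.14, adjusted p = 2.86e-05), and 0.94 without etoposide replicate 1, which ends the call by the 2-fold rule. The groups did not overlap in any of these 4 lines.

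In 5 lines IFI16 rose by less than 2-fold. MONO-MAC-6 went from 55.1, 48.1 and 52.0 CPM to 111, 84.8 and 109 CPM (log2 0.97, SE 0.09, adjusted p = 3.16e-06), just under the limit. It passed the limit without untreated replicate 1 (1.02) or etoposide replicate 2 (1.09). MV-4-11 rose from 7.26, 6.79 and 7.17 CPM to 13.6, 11.5 and 13.1 CPM and NOMO-1 from 15.3, 16.6 and 11.7 CPM to 20.1, 28.6 and 23.7 CPM, with log2 fold changes of 0.80 and 0.76. MOLM-13 (log2 0.64, SE 0.19, adjusted p = 0.014) and KASUMI-1 (log2 0.35, SE 0.11, adjusted p = 0.0191), which had the highest level to begin with, are less firm. The call in MOLM-13 was lost without untreated replicate 1 (adjusted p = 0.0587), and that in KASUMI-1 without untreated replicate 3 (adjusted p = 0.0565) or etoposide replicate 3 (adjusted p = 0.0889). OCI-AML3 did not pass, with 50.9, 51.8 and 78.6 CPM untreated and 76.3, 91.6 and 50.2 CPM with etoposide (log2 0.28, SE 0.23, adjusted p = 0.378). Replicate 3 stood apart there in both groups, high untreated and low with etoposide. Without the etoposide library numbered 3 the log2 fold change was 0.48 and passed (adjusted p = 0.0325), and without the untreated one it was 0.49 (adjusted p = 0.109).

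**Figure D3:**
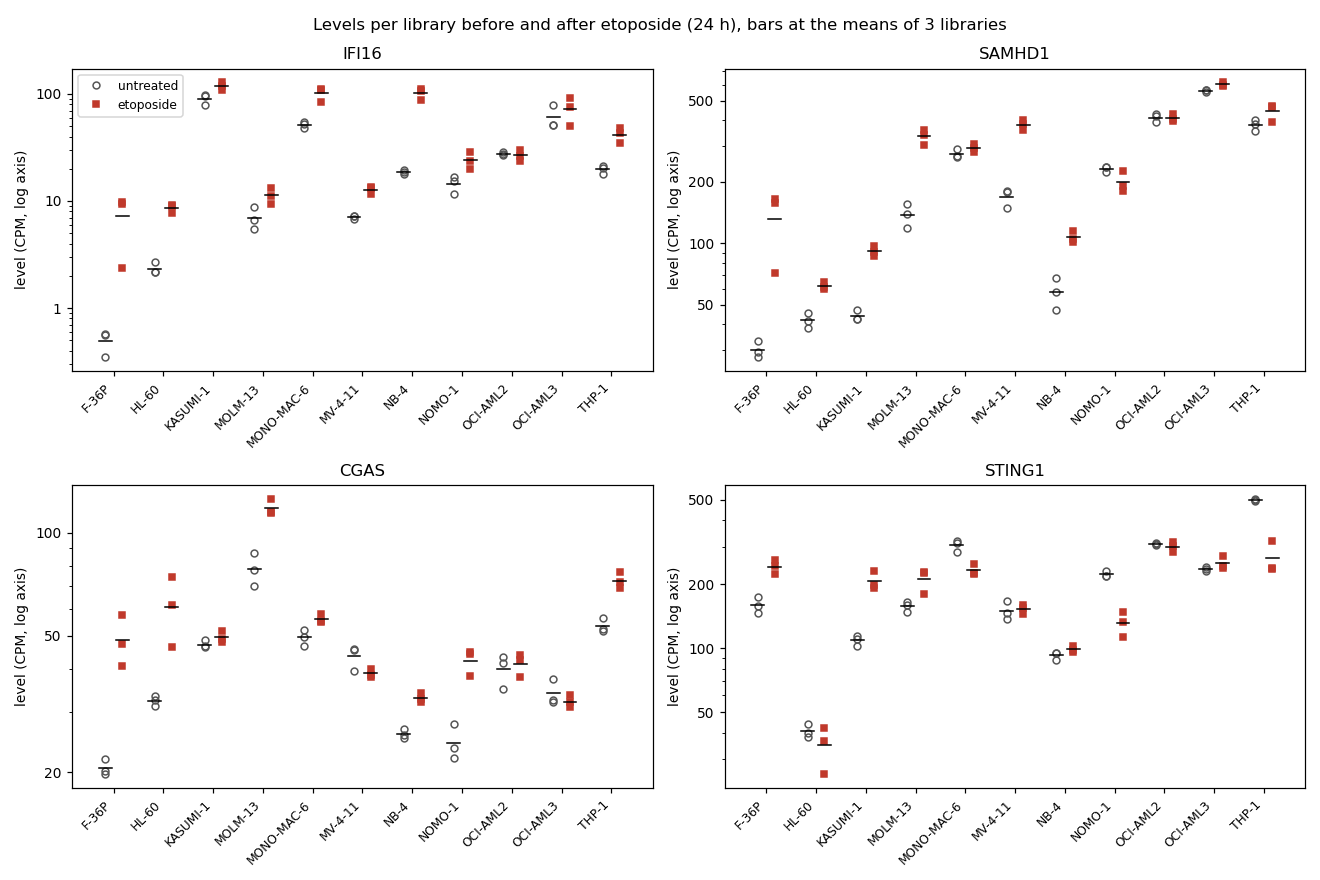
Levels of IFI16, SAMHD1, CGAS and STING1 (CPM, log axis) in each library of 11 lines, untreated (open circles) and after etoposide (filled squares), with bars at the means of 3 libraries. IFI16 rises from 18.7 to 102 CPM in NB-4, SAMHD1 from 169 to 381 CPM in MV-4-11, and STING1 falls from 499 to 265 CPM in THP-1, while both groups of OCI-AML2 overlap for all 4 genes.

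CGAS, the enzyme that makes cGAMP, was induced in F-36P only and rose in 6 other lines. F-36P gave 21.9, 19.7 and 20.1 CPM untreated and 47.4, 40.9 and 57.5 CPM with etoposide (log2 1.19, SE 0.14, adjusted p = 6.84e-05). In HL-60 the level went from 33.3, 31.1 and 32.5 CPM to 61.5, 46.5 and 74.4 CPM (log2 0.88, SE 0.14, adjusted p = 0.000474), and without etoposide replicate 2 the change passed 2-fold (log2 1.05). NOMO-1 rose from 21.9, 27.7 and 23.5 CPM to 44.1, 44.8 and 38.1 CPM (log2 0.82, SE 0.11, adjusted p = 6.23e-05). MOLM-13, the line with the most CGAS RNA, still rose from 78.2 ± 8.63 to 118 ± 6.25 CPM (log2 0.53, SE 0.09, adjusted p = 0.000679). F-36P, HL-60 and NOMO-1 were among the 4 lines with the least CGAS before treatment. Smaller rises in THP-1 (log2 0.39), NB-4 (0.30) and MONO-MAC-6 (0.18) and a fall in MV-4-11 (-0.21) each depended on single libraries. The THP-1 rise was lost without untreated replicate 1 (adjusted p = 0.0907), untreated replicate 3 (0.0977) or etoposide replicate 3 (0.0513), and the NB-4 rise without etoposide replicate 3 (0.0795). In MONO-MAC-6 it was lost without untreated replicate 2 (adjusted p = 0.0552), untreated replicate 3 (0.126) or etoposide replicate 1 (0.0712). The fall in MV-4-11 was lost without untreated replicate 1 (adjusted p = 0.061) or 2 (0.0806), and with library size alone (log2 -0.08, adjusted p = 0.335). KASUMI-1 and OCI-AML3 had log2 fold changes of 0.02 and -0.07 that did not pass.

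STING1 moved in opposite directions in different lines. It rose in KASUMI-1 from 103, 111 and 115 CPM to 192, 231 and 199 CPM (log2 0.87, SE 0.09, adjusted p = 3.08e-05). F-36P rose from 174, 158 and 147 CPM to 224, 244 and 260 CPM (log2 0.56, SE 0.10, adjusted p = 0.000993). MOLM-13 rose from 158 ± 9.20 to 211 ± 27.1 CPM (log2 0.36, SE 0.09, adjusted p = 0.00828). It fell in THP-1, MONO-MAC-6 and NOMO-1, which are 3 of the 4 lines with the most STING1 before treatment among the 10. In THP-1 the level went from 503, 495 and 500 CPM to 237, 320 and 239 CPM (log2 -0.95, SE 0.13, adjusted p = 3.16e-05), and without etoposide replicate 2 the fall passed 2-fold (log2 -1.08). NOMO-1 fell from 219, 220 and 230 CPM to 147, 113 and 133 CPM (log2 -0.74, SE 0.09, adjusted p = 4.12e-05). MONO-MAC-6 fell from 284, 315 and 319 CPM to 224, 248 and 227 CPM (log2 -0.39, SE 0.06, adjusted p = 9.2e-05). In each of these 6 lines the untreated and etoposide libraries did not overlap. OCI-AML3, with a like starting level of 236 ± 4.55 CPM, did not pass (252 ± 16.8 CPM, log2 0.10, SE 0.07). HL-60, MV-4-11 and NB-4 did not pass either, with log2 fold changes of -0.25, -0.02 and 0.04, and HL-60 did so without etoposide replicate 2 (log2 -0.41, adjusted p = 0.0404).

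The kinases changed little. IKBKE rose in HL-60 from 27.9, 25.6 and 26.9 CPM to 37.7, 48.6 and 49.5 CPM (log2 0.73, SE 0.12, adjusted p = 0.000572). It also rose in F-36P, from 15.9 ± 1.67 to 24.0 ± 3.84 CPM (log2 0.55, SE 0.15, adjusted p = 0.00849), and in MV-4-11, from 43.1 ± 1.36 to 61.2 ± 2.35 CPM (log2 0.46, SE 0.07, adjusted p = 2.61e-06). HL-60 and F-36P were the lines with the least IKBKE before treatment. NB-4, the line with the most, fell from 133, 148 and 121 CPM to 101, 118 and 104 CPM (log2 -0.37, SE 0.10, adjusted p = 0.00382), but not with library size alone (log2 -0.17, adjusted p = 0.153). IKBKE passed with 1 library left out in MOLM-13 (without etoposide replicate 1, adjusted p = 0.041), MONO-MAC-6 (without untreated replicate 2, adjusted p = 0.0264) and NOMO-1 (without etoposide replicate 1, adjusted p = 0.0107), with log2 values of 0.17, 0.19 and -0.27. TBK1 rose in KASUMI-1, its lowest line, from 32.7, 32.3 and 23.5 CPM to 51.8, 42.2 and 55.1 CPM (log2 0.70, SE 0.15, adjusted p = 0.00257). In NB-4 it fell from 50.7 ± 7.31 to 39.0 ± 3.79 CPM (log2 -0.43, SE 0.11, adjusted p = 0.00445), again not with library size alone (log2 -0.22, adjusted p = 0.0997). In THP-1 it fell from 55.1 ± 1.09 to 40.9 ± 9.72 CPM (log2 -0.48, SE 0.15, adjusted p = 0.0222), a call lost without any of the untreated replicates 1 (adjusted p = 0.0846), 2 (0.0959) or 3 (0.057). Single libraries weigh on TBK1 values that did not pass. Without F-36P untreated replicate 3, at 88.0 CPM, the log2 fold change of F-36P was 0.35 (adjusted p = 0.0446) instead of 0.02. OCI-AML3 gave 56.2, 57.8 and 24.9 CPM with etoposide, and without replicate 3 its log2 fold change was 0.40 (adjusted p = 0.0504) instead of 0.10. Without NOMO-1 etoposide replicate 1 the log2 fold change of TBK1 was 0.34 (adjusted p = 0.0147) instead of 0.24, without MONO-MAC-6 untreated replicate 1 it was 0.28 (adjusted p = 0.00212) instead of 0.17, and without HL-60 etoposide replicate 1 it was -0.29 (adjusted p = 0.0462) instead of -0.23.

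IRF3, the transcription factor at the end of the route, passed in none of the 10 lines. Its log2 fold changes lay between -0.30 (SE 0.13) in THP-1 and 0.12 (SE 0.08) in MONO-MAC-6. Untreated and etoposide libraries overlapped in every line, for example 114, 119 and 123 CPM against 88.0, 117 and 93.5 CPM in THP-1. THP-1 passed without etoposide replicate 2 (log2 -0.41, adjusted p = 0.000835). In NB-4, where same-numbered libraries are paired, the fit with the replicate number as a block gave an IRF3 fall that passed (log2 -0.23, adjusted p = 0.00603), against an adjusted p of 0.0814 without it. The NB-4 fall also passed without untreated replicate 3 (adjusted p = 0.0493) or etoposide replicate 2 (0.0438). In MONO-MAC-6 a rise passed with library size alone (log2 0.23, adjusted p = 0.0329). It also passed there with the replicate block (log2 0.12, adjusted p = 0.0108), though same-numbered libraries of that line were not paired. These values concern IRF3 RNA, not the phosphorylation by which the protein is switched on.

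SAMHD1 rose in 6 lines and was induced in 4. In F-36P it went from 29.3, 27.6 and 33.1 CPM to 157, 71.1 and 166 CPM (log2 2.08, SE 0.28, adjusted p = 0.000125), with replicate 2 again the lowest of the etoposide libraries. Without that library the log2 fold change was 2.37 (SE 0.15). MV-4-11 rose from 180, 178 and 149 CPM to 404, 383 and 357 CPM (log2 1.13, SE 0.07, adjusted p = 3.62e-12). MOLM-13 rose from 156, 139 and 119 CPM to 360, 339 and 303 CPM (log2 1.21, SE 0.10, adjusted p = 8.84e-06). KASUMI-1 went from 47.2, 42.7 and 42.4 CPM to 96.7, 91.1 and 86.3 CPM (log2 1.00, SE 0.09, adjusted p = 9.61e-06). This lies at the 2-fold limit, and the induction was lost without untreated replicate 2 (log2 0.97), untreated replicate 3 (0.97) or etoposide replicate 1 (0.96). The induction was also lost with DESeq2 (0.98), with another scaling, RLE (0.98), and with no filter on low counts (0.95), though the rise passed each time. NB-4 rose from 67.7, 57.8 and 47.1 CPM to 114, 101 and 105 CPM (log2 0.85, SE 0.11, adjusted p = 1.29e-05), and HL-60 from 41.8 ± 3.52 to 61.6 ± 2.60 CPM (log2 0.53, SE 0.10, adjusted p = 0.0013). In all 6 lines the groups did not overlap. These 6 lines were the 6 with the least SAMHD1 before treatment. The other 4, which started between 232 and 558 CPM, did not pass, with log2 fold changes of -0.20 in NOMO-1, 0.10 in MONO-MAC-6, 0.12 in OCI-AML3 and 0.17 in THP-1. Among these, NOMO-1 passed as a fall without etoposide replicate 1 (log2 -0.32, adjusted p = 0.00213), THP-1 as a rise without etoposide replicate 2 (log2 0.28, adjusted p = 0.012) and MONO-MAC-6 as a rise without untreated replicate 1 (log2 0.14, adjusted p = 0.0103).

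The highest and lowest levels lay closer together after treatment for some of these genes. Over the 10 lines the ratio of the highest to the lowest mean went from 183 to 16.5 for IFI16, from 18.6 to 9.77 for SAMHD1, from 12.3 to 7.60 for STING1 and from 8.46 to 4.48 for IKBKE. For CGAS it was 3.80 before and 3.67 after, for IRF3 2.21 and 2.18, and for TBK1 2.03 and 1.63. These ratios are a description without a test, and each rests on the highest and the lowest line alone. For IFI16 and SAMHD1 the lowest untreated line was F-36P, which had 27 reads of IFI16. The untreated libraries enter both the starting levels and the changes given above.

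Taking each line as 1 value, the exact sign-flip permutation test (two-sided, all sign combinations, adjusted over 10588 genes tested in all 10 lines) asked for a common direction. IFI16 was positive in 10 of 10 lines, with a mean log2 fold change of 1.29 ± 1.10 (SD over lines; exact p = 0.00195, the smallest that 10 lines allow, adjusted p = 0.00991). SAMHD1 was positive in 9 of 10 (mean 0.70 ± 0.69, exact p = 0.00977, adjusted p = 0.0274). CGAS was positive in 8 of 10 (mean 0.40 ± 0.45, exact p = 0.0215, adjusted p = 0.0496). This count of 3 of 7 stands beside 43.3% of all genes tested. The IFI16 call held without each line in turn, the SAMHD1 call was lost without MV-4-11 (adjusted p = 0.0517) or NB-4 (0.052), and the CGAS call was lost without any line other than MV-4-11 and OCI-AML3 (adjusted p of 0.0563 to 0.0928). IKBKE (mean 0.17 ± 0.34, adjusted p = 0.241), IRF3 (-0.07 ± 0.12, adjusted p = 0.205), STING1 (-0.04 ± 0.56, adjusted p = 0.858) and TBK1 (0.01 ± 0.34, adjusted p = 0.962) did not pass. The size of the change differed between lines for 6 of the 7 genes by the interaction F test of edgeR on 60 libraries, where 74.5% of all genes passed. IRF3 was the exception (adjusted p = 0.44), and TBK1 was close to the limit (adjusted p = 0.017, but 0.0626 with the replicate number as a block and 0.12 without the libraries numbered 2). Since the etoposide concentration was set per line, differences between lines cannot be told apart from differences of concentration. In OCI-AML2 none of the 7 genes passed, with log2 fold changes between -0.04 and 0.06 and a lowest unadjusted p of 0.483, so 0 genes had an unadjusted p under 0.05. The exact test of edgeR and DESeq2 also called 0 of the 7. There 0.0221% of 13604 genes passed.

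The rest of the pathway was read in lists grouped by role, and the plot of calls by list sets them beside all genes. For comparison, 27.7% of all gene-line pairs rose and 24.4% fell. Of 115 pairs of further DNA sensors, 8 (6.96%) rose and 70 (60.9%) fell, with a median log2 fold change of -0.34. XRCC6, a DNA end-binding subunit of DNA-dependent protein kinase, fell in 9 lines, and PRKDC, its catalytic subunit, in 8 (both named after their values were seen). AIM2, the sensor that builds an inflammasome and is a relative of IFI16, was induced in 4 of the 5 lines in which it could be tested. At its low levels it passes the filter on low counts mainly where etoposide raises it. Its share is therefore not comparable with those of the other sensors. AIM2 rose in MONO-MAC-6 from 3.98, 4.08 and 3.77 CPM to 12.5, 11.3 and 10.9 CPM (log2 1.56, SE 0.10, edgeR adjusted p = 1.59e-07), and lay below 2 CPM in all libraries of the other lines. ZBP1, a sensor of Z-form nucleic acid, was tested in no line, and had 0 reads untreated against 32 with etoposide in F-36P, at least 10.8-fold more.

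**Figure D4:**
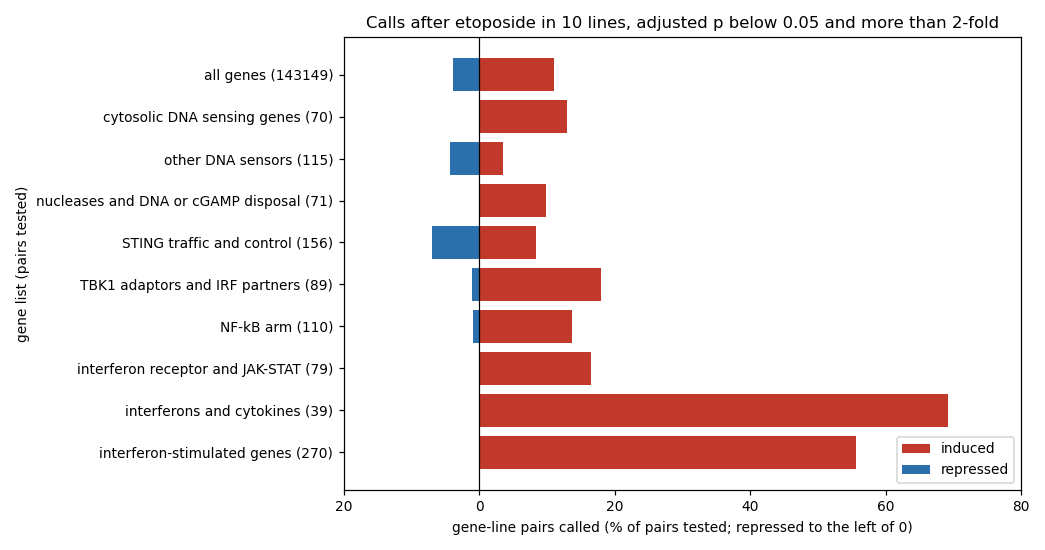
Share of gene-line pairs called induced (right) or repressed (left) after etoposide in 10 lines, in % of the pairs tested, for the cytosolic DNA sensing genes, the lists of the pathway and all genes. The sensing genes are at 12.9% induced, all genes at 11.1%, interferons and cytokines at 69.2% and interferon-stimulated genes at 55.6%. Pairs that failed the filter on low counts are not in these shares.

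Among nucleases and enzymes that dispose of DNA or cGAMP, 17 of 71 pairs (23.9%) rose and 25 (35.2%) fell, so that the share that rose was below that of all genes. DNASE2, the lysosomal DNase, was induced in 6 of 9 lines, with a median log2 fold change of 1.12 and a lowest of -0.20. Its largest change was in MV-4-11, from 0.807, 1.47 and 1.35 CPM to 7.66, 6.87 and 7.88 CPM (log2 2.58, SE 0.19). The subunits of RNase H2, which removes ribonucleotides from DNA, were split. RNASEH2A, the catalytic subunit, rose in 7 lines and fell in 1, RNASEH2B fell in 8 and RNASEH2C fell in 1 and did not pass in 9. ENPP1, which degrades cGAMP outside the cell, was tested in 2 lines and induced in F-36P (log2 2.60, SE 0.30). Of 156 pairs of STING1 traffic and control genes 56 (35.9%) rose and 40 (25.6%) fell, the latter near the share of all genes. INSIG1, also a target of sterol control and named after its values were seen, was repressed in 9 lines and induced in 1.

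Among TBK1 adaptors and IRF partners 42 of 89 pairs (47.2%) rose and 14 (15.7%) fell. IRF7, a relative of IRF3 that is itself interferon-inducible, was induced in 8 lines, with log2 fold changes from 1.07 in MV-4-11 to 3.55 in KASUMI-1, and did not pass in MOLM-13 (0.28) and OCI-AML3 (0.30). IRF1 rose in 8 lines and was induced in 2. TANK, an adaptor of TBK1, rose in 5 and passed the 2-fold rule in none. TRAF3 rose in 4 lines and fell in 4, with a repression in F-36P (log2 -1.07, SE 0.12). In the NF-kB arm 32 of 110 pairs (29.1%) rose and 20 (18.2%) fell, near the share of all genes for the rise. Its feedback inhibitors NFKBIA and TNFAIP3 were induced in 3 and 5 lines, and TNFAIP3 was repressed in NB-4, the line in which IKBKE and TBK1 also fell. NFKB1 rose in 3 lines and fell in 3. Of the interferon receptor and JAK-STAT genes 52 of 79 pairs (65.8%) rose and 1 (1.27%) fell. STAT2 rose in 10 of 10 lines and IRF9 in 6, of which 4 and 3 were inductions.

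Of 39 pairs of interferons and cytokines, 27 (69.2%) were induced and 0 repressed, against 11.1% and 3.96% of all pairs. CXCL8, also a target of NF-kB, gave 10 of these inductions. Of the 13 genes of this list, 7 were tested in any line. A gene near 0 reads untreated passes the filter on low counts mainly where etoposide raises it. The filter thus favours inductions in the 69.2%, which is not a measure of the whole list. Of 270 pairs of interferon-stimulated genes 150 (55.6%) were induced and 0 repressed, with a median log2 fold change of 1.13. Without F-36P etoposide replicate 2, an omission chosen after the data were seen, the count of inductions was 152 instead of 150. The filter on low counts bears on the 55.6% and on this median as well. IFI44L was tested in 4 lines and IFI27 in 2, and both were induced in all of them. GBP1 was tested in 4 lines and induced in 3. IFNB1, interferon beta, could be tested in F-36P alone, where 3 reads untreated stood against 79 with etoposide, a ratio of reads per library total of 26.8 (95% exact interval 8.83 to 133, for counting error only). In NB-4 there were 2 and 13 reads, in MONO-MAC-6 2 and 17, and in NOMO-1 none. CXCL10, a chemokine induced by IRF3 and interferon, had 0 reads in untreated HL-60 and 668 with etoposide, at least 226-fold more. It went from 0.463, 0.336 and 0.627 CPM to 10.6, 1.06 and 22.7 CPM in F-36P and from 4.03, 3.39 and 3.91 CPM to 125, 113 and 113 CPM in MONO-MAC-6, whereas NB-4 did not pass (log2 -0.29, SE 0.23). The chemokine CXCL8 was induced in 10 lines and CCL5 in 5. IL6 was tested and induced in MONO-MAC-6 alone, from 26 to 100 reads. The ubiquitin-like ISG15 was induced in 6 lines, IFIT1 in 6, MX1 in 7 and OAS1 in 8.

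The interferon-stimulated list differed widely between lines. In F-36P 26 of 30 of its genes were induced (median log2 fold change 3.28), in KASUMI-1 23 of 28 (1.54), in NB-4 21 of 28 (1.84) and in MV-4-11 20 of 26 (1.58). MONO-MAC-6 and THP-1 had 19 of 29 each, with medians of 1.12 and 1.19. A minority was induced in NOMO-1 (7 of 28, median 0.49), OCI-AML3 (6 of 23, 0.73), MOLM-13 (5 of 26, 0.41) and HL-60 (4 of 23, 0.35). Of all genes tested, 24.3% were induced in F-36P, 14.6% in KASUMI-1, 13.2% in NB-4, 12.5% in MV-4-11, 8.53% in MONO-MAC-6 and 6.38% in THP-1. In NOMO-1, OCI-AML3, MOLM-13 and HL-60 these shares were 8.34%, 7.18%, 8.59% and 5.34%. The genes of the list that were tested differed between lines, so the medians are not over the same genes. The IFI16 changes of these lines, in the same order, were 3.79, 0.35, 2.40, 0.80, 0.97, 1.04, 0.76, 0.28, 0.64 and 1.85. No relation between the list and the sensing genes is drawn from them, since both were measured in the same libraries. F-36P etoposide replicate 2, which was low for IFI16 and SAMHD1, was also low for ISG15 (103 CPM, against 324 and 705 CPM) and OAS1 (83.6 CPM, against 302 and 419 CPM). Markers of other cell types changed as well. Of 57 pairs of lymphoid and non-blood markers 29 (50.9%) were induced and 1 repressed, and of 90 pairs of myeloid markers 27 were induced and 5 repressed. Untreated, the lymphoid and non-blood markers were above 1 CPM for 1 of 10 in HL-60 to 7 of 10 in NOMO-1. Those near 0 enter the pairs mainly where etoposide raises them, which favours inductions in the 50.9%. The filter bears on the myeloid markers too, since CD14 passed it in 5 lines and was induced in 4 of these. Of 26 pairs of erythroid markers 4 (15.4%) rose and 11 (42.3%) fell, against 27.7% and 24.4% of all pairs. In F-36P, the line with the largest changes of IFI16, SAMHD1 and CGAS, 6 of 8 erythroid markers fell and 2 of these were repressed, where 24.98% of all genes fell and 6.67% were repressed. The part of these shifts in the results above was not tested.

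By Pearson's r of mean log2(1 + CPM) over the 11 untreated lines, among 13657 other genes averaging 1 CPM or more, genes most like each sensing gene in level were as follows. SAMHD1 ran closest to MEFV (r = 0.98), ZNF532 (0.98) and PECR (0.97), and IFI16 to PSD3 (0.93), FAM220A (0.91) and ZC3HAV1L (0.90). For STING1 they were RECK (0.92), C2orf76 (0.91) and PECAM1 (0.91), and for IRF3 LLPH (0.93), RPL36AL (0.91) and ARMC5 (0.88). CGAS was nearest to KRTCAP2 (0.90), TRIM46 (0.88) and AZU1 (0.86), and TBK1 to EIF2B3 (0.90) and ZWILCH (0.89). IKBKE was nearest to JADE2 (0.87), CCL5 (0.86) and PYGL (0.86). None of these was itself a member of the sensing list. With 11 lines and so many genes, values of this height are met for many genes, and they are given as a description.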

How the data were processed

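Poly(A) RNA of 66 libraries from 11 AML cell lines (untreated or etoposide, 3 libraries each) was sequenced by the authors with a stranded kit. Per the submitters' processing notes, reads were checked with FastQC 0.11.5 and aligned with STAR 2.5.3a to GRCh38.p7, and edgeR 3.20.1 was used. The deposited files hold raw read counts per gene made by the authors with STAR. The column of strand used is not given in the sources used here. The 45 pseudoautosomal copies on Y, all at 0 reads, were left out.

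Gene symbols and positions came from gencode 44, in which 56948 of 57992 identifiers had a name. Per line, genes were filtered with filterByExpr (minimum count 10, minimum total 15), scaled by TMM and tested with the quasi-likelihood test of edgeR 4.0.16 in R 4.3.3, with Benjamini-Hochberg adjustment. Between 13210 and 15911 genes were tested per line. Differences between lines used F tests of 33 untreated or 60 libraries, and directions an exact sign-flip test over 10 lines. The code was tested on simulated data. DESeq2 1.42.0 was an alternative, besides other filters, scalings, the edgeR exact test, a replicate block and leaving out each library. Printed means and fitted changes differed by at most 0.0706 on the log2 scale.

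Same-numbered libraries are called paired where every correlation of their deviations from the group means exceeded 0.1. This held in MOLM-13 (0.18 to 0.25), NB-4 (0.20 to 0.39) and OCI-AML2 (0.11 to 0.22), and the pairing comes from the data, not the labels. The reported fits ignore this pairing in every line. The replicate block was an alternative fit, run in every line whether paired or not. No 2 libraries agreed within sampling noise (lowest chi-square per degree of freedom 2.049). A floor of 3 reads over a group, for bounds on genes at 0, is at most 0.0528 CPM and covers counting error only.

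The sensing genes and the lists were chosen with earlier results of these data known. Named genes were the sensing genes, 1 or more genes of each list by role, CDKN1A, and the 3 genes most like each sensing gene in untreated level. Results of some genes named by this rule are not reported here.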

Additional observations from a re-analysis of the deposited data

Results flagged for a closer look

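The change after etoposide differed between the 10 lines for 6 of the 7 measured genes, by the interaction F test of edgeR on 60 libraries (9 degrees of freedom, adjusted over all genes, of which 74.5% passed). The adjusted p-values were 1.85e-15 for STING1, 1.69e-14 for SAMHD1, 3.55e-12 for CGAS, 1.34e-10 for IFI16, 6e-10 for IKBKE and 0.017 for TBK1. For STING1 the lines differed in sign, from a log2 fold change of -0.95 in THP-1 to 0.87 in KASUMI-1. For IFI16 they differed in size alone, from 0.28 in OCI-AML3 to 3.79 in F-36P. Each line had its own etoposide concentration, so line and concentration cannot be told apart in these differences.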

How the results depend on the processing

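The summary counts had 213 alternative values, and a move of up to 1.5 times was not counted as a change. Many of these values leave out 1 library, which can change only the 7 pairs of its own line. The count of 36 calls by the adjusted p alone cannot move by more than 1.5 times that way, so those values test nothing. The rule also passed 2 genes instead of 3 with a common direction, found without any 1 line other than NB-4 and OCI-AML3. By this rule 210 of the 213 values stayed. The exceptions were the repressed pairs of further DNA sensors (3 instead of 5) and of TBK1 adaptors and IRF partners (0 instead of 1), both with library size alone, and the genes with a common direction over lines without NB-4 (1 instead of 3). The 36 gene-line calls of the sensing genes were recomputed 503 times. They kept direction and significance in 479, lost significance in 24, in 9 pairs, and reversed in 0. Of the losses, 15 came from leaving out 1 library, 5 from 1 fit of 60 libraries, 3 from library size alone and 1 from a filter at 5 CPM. Pairs that did not pass are outside this count, and some of them gained a call. IKBKE in KASUMI-1 rose with library size alone (log2 0.35, adjusted p = 0.00561), a filter at 5 CPM (0.0227) or 1 fit of 60 libraries (0.0475). SAMHD1 in NOMO-1 fell with DESeq2 (log2 -0.23, adjusted p = 0.0484). Leaving out 1 library gave 8 to 10 inductions and 34 to 39 calls by the adjusted p alone. The causes were not tested.

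With the replicate number as a block, 9 pairs were induced and 41 passed by the adjusted p alone, against 9 and 36 without it. No call was lost. Of the paired lines, IRF3 in NB-4 gained one, and the other 4 gains were in MONO-MAC-6, whose numbers were not paired by the same criterion. The block ended the TBK1 difference between lines, which left 5 genes.

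Depth limits IFI16 in untreated F-36P (27 reads) and the cytokine genes with few reads.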
